A study of Homo sapiens with 14 samples.

Results

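A set of 9 genes of angiogenesis and of the oxygen response were followed through a polysome gradient with and without the initiation factor DAP5. They are HIF1A, ARNT and EGLN1, which set the hypoxia response, the secreted factors VEGFA, VEGFC, FGF2 and ADM, the receptor NRP1, and the secreted inhibitor THBS1. They were chosen as a list of named genes, 9 of the 58434 gene symbols counted, because HIF1A, VEGFA and FGF2 are known for cap-independent translation and the others act in the same pathways. The cells were MDA-MB-231, an established human breast cancer line that lacks the estrogen receptor. One stable line carried a doxycycline-inducible non-silencing shRNA (shNSi) and the other a doxycycline-inducible shRNA against DAP5 (shDAP5), a single hairpin each, delivered by lentivirus and sorted for a fluorescent reporter. Both lines received doxycycline at 1 µg/ml for 6 days, so the control cells carried the same agent. Each line had 2 cultures, and each culture gave a library of total mRNA, of light polysomes (2 to 3 ribosomes, poorly translated mRNA) and of heavy polysomes (4 or more ribosomes, well-translated mRNA). The shNSi cultures also gave a moderate pool, for 14 libraries in all. The ribosome numbers are those the paper gives for its light and heavy pools, and it describes no moderate pool. The lines were thus not cut into the same pools, and heavy and light may cover different fractions in each.

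Under normal oxygen the prolyl hydroxylase PHD2, encoded by EGLN1, marks the HIF-1α subunit for destruction. In hypoxia HIF-1α, encoded by HIF1A, accumulates, pairs with ARNT (HIF-1β) and turns on genes such as VEGFA and ADM, whose products act on the endothelium. VEGF-A drives blood vessel growth, VEGF-C lymphatic vessel growth, and FGF2 is a broad mitogen of endothelial cells. Neuropilin-1, the product of NRP1, is a co-receptor for VEGF and for class 3 semaphorins, and thrombospondin-1, the product of THBS1, restrains vessel growth. DAP5, encoded by EIF4G2, is a relative of eIF4G that does not bind eIF4E, and several of these mRNAs have been described as carrying internal ribosome entry sites. The experiment therefore asks how far each mRNA stays on polysomes when DAP5 is silenced.

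The sequence around each start codon is shown because the comparisons turn on initiation and because the silenced gene itself starts at a codon other than ATG. Each window is read 5′ to 3′ on the strand of the gene from a GENCODE v29 transcript, with the start codon in capitals.
HIF1A: gaccgattcaccATGgagggcgccggc
ARNT: gcatctgcggccATGgcggcgactact
EGLN1: gccgccgccgccATGgccaatgacagc
VEGFA: gcctccgaaaccATGaactttctgctg
VEGFC: ggtccttccaccATGcacttgctgggc
FGF2: cccgcagggaccATGgcagccgggagc
ADM: ttcgcagccgggATGaagctggtttcc
NRP1: ggagaagggagaATGgagagggggctg
THBS1: aacagctccaccATGgggctggcctgg
EIF4G2: caagccgccaaaGTGgagagtgcgatt

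All 9 members start at ATG in these transcripts, whereas EIF4G2 starts at GTG. A purine stood at the third base before the start in 9 of 9 members, against 85.0% of 18657 coding genes, and a G directly after the codon in 6 of 9, against 50.7%. The windows of HIF1A, ARNT, EGLN1, FGF2, NRP1 and THBS1 held both features, and 42.6% of coding genes did.

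In GENCODE v29 on GRCh38, HIF1A lies on chromosome 14 from 61695513 to 61748259 (plus strand), ARNT on chromosome 1 from 150809705 to 150876768 (minus) and EGLN1 on chromosome 1 from 231363751 to 231425044 (minus). VEGFA lies on chromosome 6 from 43770184 to 43786487 (plus), VEGFC on chromosome 4 from 176683538 to 176792727 (minus), FGF2 on chromosome 4 from 122826708 to 122898236 (plus) and ADM on chromosome 11 from 10304680 to 10307397 (plus). NRP1 lies on chromosome 10 from 33177492 to 33336262 (minus) and THBS1 on chromosome 15 from 39581079 to 39599466 (plus). The deposited counts were made on hg19, and these positions apply to GRCh38 alone. The coding sequences, without the stop codon, ran from 555 bases for ADM and 645 for VEGFA, through 1257 for VEGFC, 1278 for EGLN1, 2367 for ARNT and 2478 for HIF1A, to 2769 for NRP1 and 3510 for THBS1. FGF2 (465 bases in the transcript used) overlaps the coding gene NUDT6 on the opposite strand and THBS1 overlaps FSIP1. HIF1A overlaps 2 antisense RNAs, and VEGFA, VEGFC and NRP1 each overlap an annotated noncoding gene on the opposite strand. The name of the deposited file carries the unexplained tag "rev", and no protocol states whether reads were assigned by strand, so reads from such partners may not be separated from the member's own. The longest 5′ leader belonged to EGLN1, with 3156 bases and 45 upstream ATG triplets, and the other members had 0 to 3 upstream ATG triplets.

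Each library held between 25899838 and 30795910 counts, and every pair of replicate libraries differed by more than sampling noise (chi-square per gene from 32.7 to 277). The study describes its data as 2 independently performed sets, and the labels number the cultures 1 and 2 within each line. EIF4G2, the silenced gene, had a normalized read count (CPM, scaled to library size by TMM) of 1391 and 1358 in shNSi total mRNA and 525 and 730 in shDAP5, a log2 change of −1.11 ± 0.18 (SE, n = 2 a group, adjusted p = 0.0172 by edgeR's quasi-likelihood test). The line markers VIM (797 to 14737 CPM) and CD44 (105 to 1499.6) were present in every library, while PGR had no read, CDH1 at most 8 and ESR1 at most 16. The epithelial marker EPCAM was also read in every library, at 76 to 169 reads (2.91 to 6.10 CPM). The light libraries of shDAP5 bear the moderate pool's code in a second label, and its total libraries are titled total polysome. With the light title taken as correct 0 genes passed in light polysomes, whereas against the shNSi moderate pool 3940 did. These are bulk cultures, in which fewer cells with an mRNA and less of it per cell cannot be told apart.

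The level of each member was first described in every library. Levels between genes are compared as CPM per kilobase of annotated exon, and levels of 1 gene as CPM. In shNSi total mRNA the order was ADM at 132 ± 50.4 CPM per kilobase (SD, n = 2), HIF1A at 58.4 ± 15.2, THBS1 at 18.9 ± 1.32, VEGFC at 15.9 ± 4.54, NRP1 at 10.7 ± 1.42, EGLN1 at 7.31 ± 1.28, ARNT at 5.89 ± 0.072 and VEGFA at 5.51 ± 3.52. THBS1 and VEGFC, as neighbours in this order, overlapped between cultures, as did VEGFA with both ARNT and EGLN1. The VEGFA value divides by annotated exons that together span 14431 bases, more than those of any other member.

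HIF1A, the oxygen-regulated subunit, had the highest mean heavy-over-light ratio of the members in shNSi, although NRP1 and THBS1 were above it in the second culture. It had 356 and 246 CPM in shNSi total mRNA and 365 and 442 in shDAP5, 137 and 131 in shNSi light polysomes and 172.5 and 174 in shDAP5, and 962 and 525 in shNSi heavy polysomes and 649 and 433 in shDAP5. The heavy libraries were the highest in every culture but the second shDAP5 culture, where total and heavy were alike. ARNT, its partner, had 38.7 and 38.1 CPM in shNSi total mRNA against 40.0 and 43.1 in shDAP5, and 25.9 and 24.8 in shNSi light polysomes against 35.2 and 33.4. In heavy polysomes ARNT had 76.2 and 75.7 CPM in shNSi and 51.3 and 36.3 in shDAP5, with no overlap between the lines. EGLN1, the hydroxylase that acts on HIF-1α, had 59.7 and 46.5 CPM in shNSi total mRNA against 65.0 and 63.1 in shDAP5, and 74.4 and 49.7 in shNSi heavy polysomes against 82.7 and 53.8. The lines overlapped in heavy polysomes, and its highest value, 100.2 CPM, was that of the first shNSi moderate library.

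VEGFA, the main vessel growth factor, differed more between the 2 shNSi cultures than between the lines. The first shNSi culture had 43.7, 43.7, 55.1 and 48.4 CPM in total, light, moderate and heavy mRNA, and the second had 115, 146, 136 and 111. The shDAP5 cultures had 110 and 99.1 in total mRNA, 109 and 84.5 in light and 138 and 110 in heavy polysomes. VEGFC, the lymphatic factor, had 30.6 and 46.2 CPM in shNSi total mRNA against 35.6 and 32.0, 38.2 and 54.4 in shNSi light polysomes against 38.6 and 34.2, and 27.7 and 43.2 in shNSi heavy polysomes against 31.2 and 38.2. ADM, which encodes the vasodilator adrenomedullin, had 261 and 455 CPM in shNSi total mRNA against 256 and 346, 310.5 and 663 in shNSi light polysomes against 239 and 380, and 262 and 319 in shNSi heavy polysomes against 264 and 481. For each of these 3 secreted factors the second shNSi culture was the higher of the pair in all 4 fractions.

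FGF2 was not detectable as an expressed mRNA at this depth. It had 0 counts in both shNSi total libraries and 0 and 1 in the shDAP5 ones, 0 in all 4 heavy libraries, 2 and 1 in shNSi light and 0 and 1 in shDAP5 light, and 1 and 0 in the moderate pool. All of these lie below 3 counts, the limit that a count of 0 allows, which is 0.0933 to 0.142 CPM in these libraries and covers counting error only. FGF2 passed the filter on low counts in no comparison, so no fold change is given, and every count below is over the 8 members that passed.

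NRP1 and THBS1, the co-receptor and the angiogenesis inhibitor, both had lower heavy polysome levels in shDAP5. NRP1 had 112 and 135 CPM in shNSi total mRNA against 101 and 99.0 in shDAP5, and 60.8 and 59.9 in shNSi light polysomes against 89.5 and 63.6. In heavy polysomes NRP1 had 192 and 415 CPM in shNSi and 94.7 and 58.6 in shDAP5. Both shNSi heavy libraries lay above both shDAP5 ones. THBS1 had 182 and 165 CPM in shNSi total mRNA against 55.1 and 139 in shDAP5, and 100.03 and 74.2 in shNSi light polysomes against 52.1 and 89.2. In heavy polysomes THBS1 had 247 and 434 CPM in shNSi and 53.8 and 70.6 in shDAP5, again without overlap. In the shNSi moderate pool, in contrast, NRP1 was at 59.1 and 93.4 CPM and THBS1 at 73.3 and 105, near their light polysome levels.

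**Figure D1:**
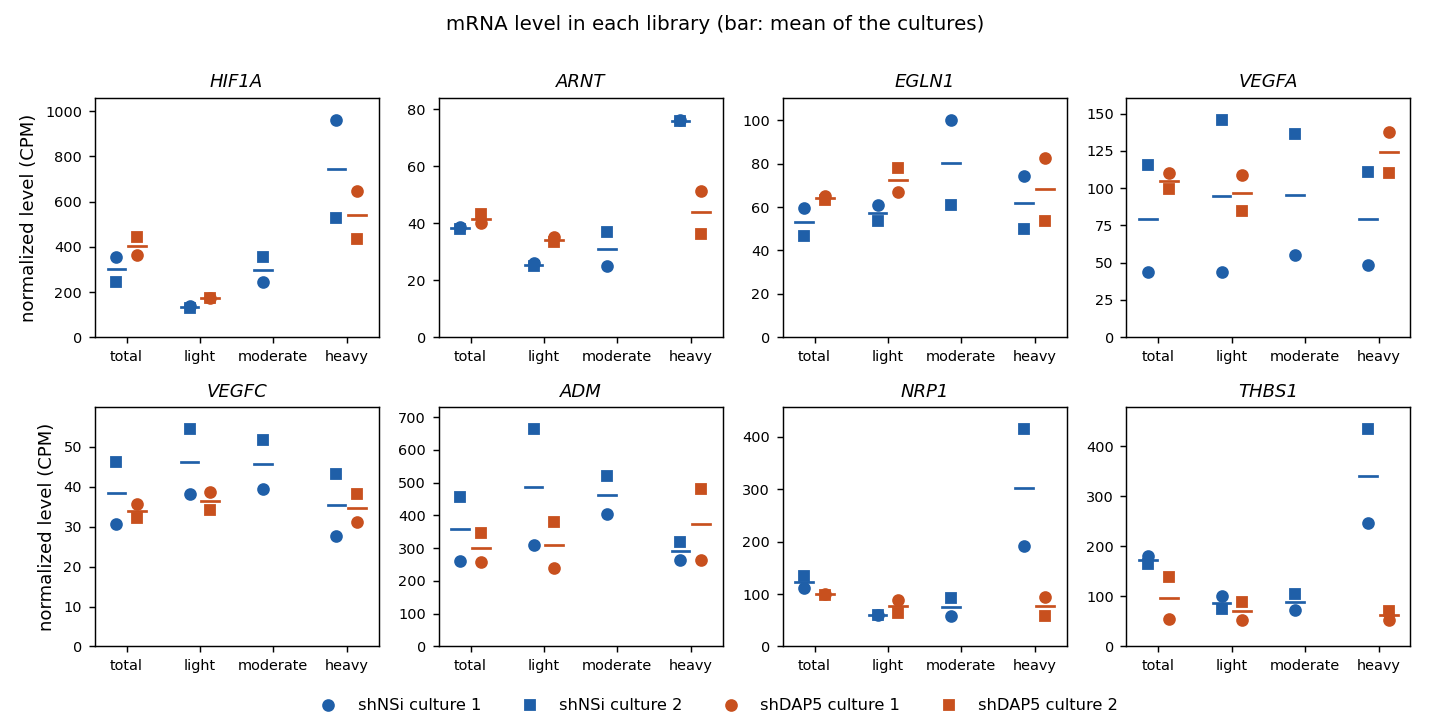
Normalized level (CPM, linear axis from 0) of the 8 measured members in each of the 14 libraries, by gradient fraction, with shNSi in blue and shDAP5 in red, circles for the first and squares for the second culture, and a bar at the mean of each pair. NRP1 and THBS1 stand at 192 to 434 CPM in shNSi heavy polysomes and at 53.8 to 94.7 in shDAP5, and VEGFA splits the shNSi cultures in every fraction.

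Heavy over light polysomes in the control cells shows where each mRNA sits when DAP5 is present. In shNSi, 4 of the 8 members were enriched in heavy polysomes and none in light polysomes at an adjusted p under 0.05, and 64.9% of the 15172 genes tested passed in either direction (32% toward heavy and 32.9% toward light). HIF1A had log2 ratios of 2.81 and 2.003 in the 2 cultures and a fitted ratio of 2.29 ± 0.41 (SE, adjusted p = 2.15e-07). NRP1 had 1.66 and 2.79, fitted 2.07 ± 0.36 (adjusted p = 1.25e-07), and THBS1 had 1.30 and 2.55, fitted 1.75 ± 0.37 (adjusted p = 9.99e-06). ARNT had 1.56 and 1.61, fitted 1.42 ± 0.31 (adjusted p = 1.98e-05). All 4 ratios were positive in both cultures.

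The secreted growth factors were spread evenly or leaned the other way. ADM had log2 heavy-over-light ratios of −0.24 and −1.05, fitted −0.82 ± 0.39 (adjusted p = 0.0571), and VEGFC had −0.46 and −0.33, fitted −0.55 ± 0.30 (adjusted p = 0.102). VEGFA had 0.15 and −0.40, fitted −0.28 ± 0.32 (adjusted p = 0.434), and EGLN1 had 0.29 and −0.11, fitted −0.07 ± 0.31 (adjusted p = 0.855). None of these 4 passed the test, but ADM passed toward light under 5 of 10 other settings (down to −1.28) and VEGFC under 4 of 10 (down to −0.96). VEGFA passed at −0.70 (adjusted p = 0.0433) without TMM. Without the first shNSi culture ADM was at −1.17 (adjusted p = 0.0389), and without the second at −0.22 (adjusted p = 0.68). The median of the 8 members was 0.68, beside −0.10 over all genes tested.

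Between the lines, the heavy-over-light ratio was lower in shDAP5 for 2 of the 8 members, NRP1 and THBS1, and 6.75% of 15878 genes passed this comparison (1.54% higher and 5.21% lower), which was chosen after seeing the data. Both genes went from at least 1.30 in each shNSi culture to 0.08 and −0.12 (NRP1) and 0.05 and −0.34 (THBS1) in shDAP5. ARNT went to 0.54 and 0.12 and HIF1A to 1.91 and 1.31, and neither passed.

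The 4 heavy-enriched mRNAs were those with the longest coding sequences among the 8, from 2367 to 3510 bases, and the others had 555 to 1278. Across 12399 genes, which are not independent replicates, the heavy-over-light ratio in shNSi ran with coding length (Spearman's rho 0.65). With offsets for coding length fitted in each library HIF1A kept a ratio of 1.27 (adjusted p = 0.00137) and NRP1 of 0.97 (adjusted p = 0.00327), whereas ARNT was at 0.45 (adjusted p = 0.0867) and THBS1 at 0.54 (adjusted p = 0.082). VEGFA turned to 0.70 (adjusted p = 0.0136) and ADM to 0.45 (adjusted p = 0.184). Library size without TMM moved the median of all genes to −0.51 and the calls to 6559 toward light and 3705 toward heavy, from 4993 and 4850.

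In total mRNA, none of the 8 members passed the test after DAP5 silencing, and 0.354% of 14992 genes did (0.0867% higher and 0.267% lower). THBS1 had the largest difference, −0.82 ± 0.44 on the log2 scale (SE, adjusted p = 0.565), with the first shDAP5 culture at 55.1 CPM and the second at 139. HIF1A was at 0.45 ± 0.20 (adjusted p = 0.39), EGLN1 at 0.30 ± 0.19 (adjusted p = 0.599) and ARNT at 0.14 ± 0.19 (adjusted p = 0.861). VEGFA was at 0.42 ± 0.48 (adjusted p = 0.84), NRP1 at −0.28 ± 0.18 (adjusted p = 0.593), ADM at −0.22 ± 0.25 (adjusted p = 0.821) and VEGFC at −0.15 ± 0.22 (adjusted p = 0.87). The members' median was −0.01, beside 0.01 over all genes.

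Without the filter on low counts THBS1 passed at −0.84 (adjusted p = 0.00406). Single cultures decided some of these values. Without the second shDAP5 culture THBS1 was at −1.63, and without the first it was at −0.31. Without the second shNSi culture VEGFA was at 1.27, and without the first it was at −0.14. Each of these fits has 1 library in a line, so a p-value would not measure the spread there and none is given. With 2 cultures a group, an exact permutation test of 1 gene cannot go below p = 0.333, so the calls rest on the spread pooled over genes.

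In heavy polysomes, the well-translated mRNA, NRP1 and THBS1 fell and VEGFA rose after DAP5 silencing. Passing members numbered 3 of 8, and 30.9% of 14270 genes passed (14.2% higher and 16.7% lower), so the share among the members was close to the background. THBS1 changed by −2.26 ± 0.36 on the log2 scale (SE, adjusted p = 2.78e-07), from a mean of 341 ± 132 CPM (SD, n = 2) to 62.2 ± 11.9. NRP1 changed by −1.79 ± 0.35 (adjusted p = 3.39e-05), from 303 ± 158 to 76.6 ± 25.5. By rank THBS1 was number 125 and NRP1 number 396 from the lowest of all genes tested.

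VEGFA changed by 0.83 ± 0.33 in heavy polysomes (adjusted p = 0.0442), from 79.6 ± 44.1 to 124 ± 19.6 CPM. The shDAP5 libraries (138 and 110) overlapped the second shNSi library (111), and without the first shNSi culture the change was 0.25 (adjusted p = 0.681). It also missed the threshold without either shDAP5 culture (0.59, adjusted p = 0.344, without the first, and 0.95, adjusted p = 0.222, without the second), with DESeq2 (0.73, adjusted p = 0.157), without a filter (0.72, adjusted p = 0.137) and with all 14 libraries in 1 fit (0.64, adjusted p = 0.443), and it passed under 5 of 14 other settings. The other members did not pass. ARNT was at −0.61 ± 0.33 (adjusted p = 0.143), HIF1A at −0.28 ± 0.37 (adjusted p = 0.584), ADM at 0.55 ± 0.36 (adjusted p = 0.236), EGLN1 at 0.31 ± 0.33 (adjusted p = 0.486) and VEGFC at 0.16 ± 0.33 (adjusted p = 0.742). With all 14 libraries in 1 fit ARNT passed at −0.79 (adjusted p = 0.0334). The members' median was −0.06, beside 0.09 over all genes.

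The heavy polysome calls depended on the control pool. The lines were not cut into the same pools, and how much of each change comes from this was not tested. Against the shNSi moderate pool NRP1 was at 0.02 (adjusted p = 1) and THBS1 at −0.51 (adjusted p = 0.986), and 50 genes passed in all. Against the sum of the heavy and moderate pools THBS1 was at −1.57 (adjusted p = 0.00262) and NRP1 at −1.09 (adjusted p = 0.0666). VEGFA was at 0.39 (adjusted p = 1) against the moderate pool and at 0.57 (adjusted p = 0.549) against the sum. Without the second shDAP5 culture THBS1 was at −2.50 (adjusted p = 0.0777) and NRP1 at −1.52 (adjusted p = 0.134), and 2 genes passed in all. Library size without TMM put the median of all genes at 0.34 and the calls at 1139 lower and 2504 higher, from 2390 and 2024, and THBS1 (−2.02, adjusted p = 0.00713), NRP1 (−1.52, adjusted p = 0.0184) and VEGFA (1.099, adjusted p = 0.0459) kept their calls.

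**Figure D2:**
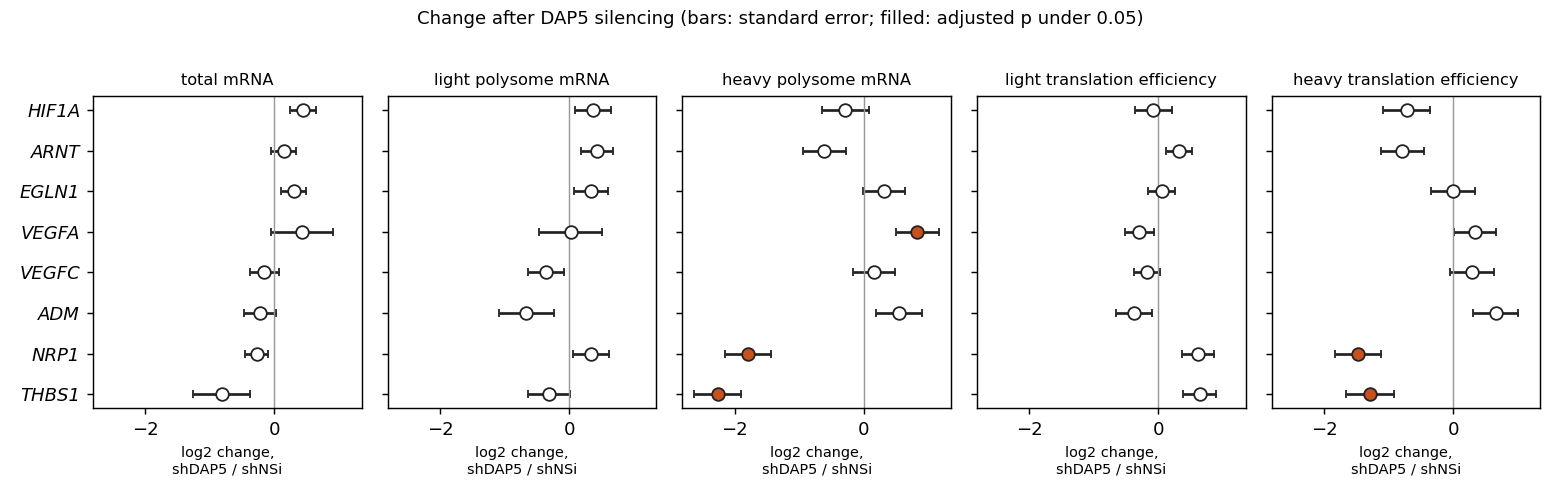
Log2 change of each member in shDAP5 over shNSi (horizontal axis) with its standard error, in total mRNA, light and heavy polysome mRNA and in light and heavy translation efficiency, with filled points at an adjusted p under 0.05. Filled points appear only in the heavy panels, for NRP1 and THBS1 in both and for VEGFA in heavy polysome mRNA.

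In light polysomes, the poorly translated mRNA, no member passed and 0% of 15529 genes did by edgeR, with 1330 genes at an unadjusted p under 0.05, 105 genes called by DESeq2 and 0 by limma. The largest difference was that of ADM, −0.66 ± 0.42 (SE, adjusted p = 0.665). ARNT was at 0.43 ± 0.25, HIF1A at 0.36 ± 0.28, NRP1 at 0.34 ± 0.28, EGLN1 at 0.33 ± 0.26 and VEGFA at 0.02 ± 0.48, while VEGFC was at −0.35 ± 0.28 and THBS1 at −0.31 ± 0.33. Their adjusted p-values ran from 0.648 to 0.994. The VEGFA value took opposite signs with either shNSi culture left out, at −0.61 without the first and 1.14 without the second. Without the first shNSi culture ADM was at −1.12 and VEGFC at −0.60, and without the second ADM was at −0.010 and VEGFC at −0.076. These fits have 1 shNSi library, so no p-value is given.

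Translation efficiency compares each polysome library with the total mRNA of its own culture. For heavy polysomes it fell for NRP1 and THBS1, 2 of the 8 members, and 13.1% of 15374 genes passed (4.85% higher and 8.23% lower). The NRP1 heavy-over-total log2 ratios were 0.78 and 1.62 in shNSi and −0.09 and −0.76 in shDAP5, a change of −1.48 ± 0.35 (SE, adjusted p = 0.00849). The THBS1 ratios were 0.44 and 1.40 in shNSi and −0.04 and −0.97 in shDAP5, a change of −1.28 ± 0.37 (adjusted p = 0.0219). Both mRNAs were thus enriched over total mRNA in both shNSi cultures and in neither shDAP5 culture. These comparisons share the heavy libraries with those of heavy polysome mRNA and are no second observation.

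HIF1A and ARNT, the subunits of HIF-1, had lower ratios in shDAP5 that did not pass. ARNT had 0.98 and 0.99 in shNSi against 0.36 and −0.25 in shDAP5, a difference of −0.78 ± 0.34 (adjusted p = 0.109). HIF1A had 1.43 and 1.097 against 0.83 and −0.03, a difference of −0.72 ± 0.37 (adjusted p = 0.178). The shDAP5 cultures lay below the shNSi cultures for both genes. Without the first shDAP5 culture, in fits with 1 shDAP5 culture, ARNT was at −1.06 and HIF1A at −1.12. Without the second ARNT was at −0.52 and HIF1A at −0.32.

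The secreted factors and EGLN1 did not pass in heavy translation efficiency. ADM had ratios of 0.01 and −0.51 in shNSi against 0.04 and 0.48 in shDAP5, a difference of 0.66 ± 0.35 (adjusted p = 0.203). VEGFA had 0.15 and −0.06 against 0.33 and 0.15, a difference of 0.34 ± 0.33 (adjusted p = 0.516). VEGFC was at 0.30 ± 0.34 (adjusted p = 0.595) and EGLN1 at −0.00 ± 0.34 (adjusted p = 0.995). Of the mRNAs known for cap-independent translation, neither HIF1A nor VEGFA thus passed and FGF2 could not be measured. The members' median was −0.36, beside 0.09 over all genes.

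**Figure D3:**
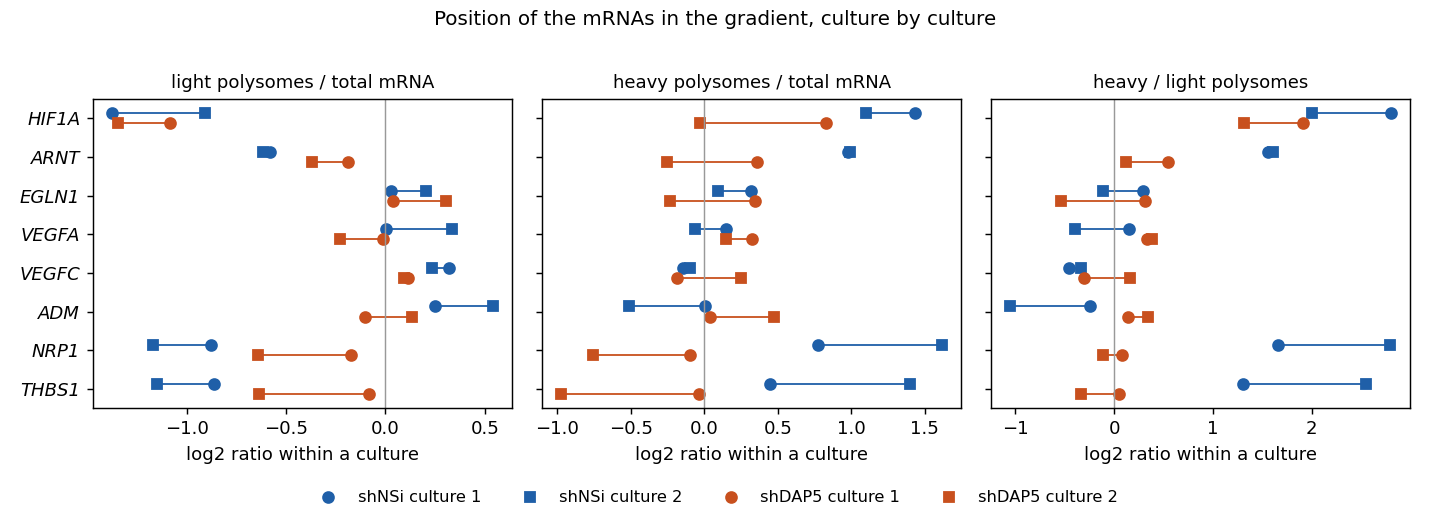
Log2 ratio of light polysome over total, heavy polysome over total and heavy over light polysome levels of each member (horizontal axes), 1 point a culture with a line joining the 2 cultures of shNSi (blue) or shDAP5 (red). In the right panel NRP1 and THBS1 run from 1.30 to 2.79 in shNSi and from −0.34 to 0.08 in shDAP5, while the HIF1A values of all 4 cultures are above 1.

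The difference in heavy translation efficiency also ran with coding length among the members. The 4 with coding sequences of 2367 bases or more were at −0.72 to −1.48 and the 4 with 1278 or fewer at −0.00 to 0.66, and across 12469 genes Spearman's rho was −0.71. With offsets for coding length NRP1 was at −0.86 (adjusted p = 0.0483), THBS1 at −0.54 (adjusted p = 0.22), ARNT at −0.27 (adjusted p = 0.6) and HIF1A at −0.17 (adjusted p = 0.76). In heavy polysome mRNA the same offsets left THBS1 at −1.42 (adjusted p = 0.0132) and NRP1 at −1.14 (adjusted p = 0.0302) and put VEGFA at 0.14 (adjusted p = 0.834).

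In heavy translation efficiency NRP1 passed under 10 and THBS1 under 6 of 16 other settings, among them DESeq2 (NRP1 at −1.54, adjusted p = 0.00423, and THBS1 at −1.35, adjusted p = 0.0165) and the first culture of either line left out. Few genes of any kind passed under the 6 settings that lost both calls, 0 with either other control pool, without TMM or without a term for each culture, 4 without the second shNSi culture and 43 without the second shDAP5 culture (455, 386, 4599, 3472, 1358 and 3031 at an unadjusted p under 0.05, in the same order). With the moderate pool as the control NRP1 was at 0.28 and THBS1 at 0.45, and with the heavy and moderate pools summed NRP1 was at −0.67 and THBS1 at −0.48 (adjusted p = 1 for all 4). Without the second shNSi culture NRP1 was at −1.05 (adjusted p = 0.584) and THBS1 at −0.80 (adjusted p = 0.635), and without the second shDAP5 culture NRP1 was at −1.18 (adjusted p = 0.113) and THBS1 at −0.85 (adjusted p = 0.237). Without a term for each culture NRP1 was at −1.55 (adjusted p = 0.119) and THBS1 at −1.47 (adjusted p = 0.152). Without TMM, which put the median of all genes at 0.30, NRP1 was at −1.26 (adjusted p = 0.0761) and THBS1 at −1.07 (adjusted p = 0.126). Quantile normalization with limma called 453 genes lower and 463 higher, from 1266 and 746, with NRP1 at −1.24 (adjusted p = 0.0473) and THBS1 at −1.12 (adjusted p = 0.0674). In the TMM scaling over all libraries the shNSi heavy libraries had factors of 0.702 and 0.763 and the shDAP5 heavy libraries 0.932 and 1.04.

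**Figure D4:**
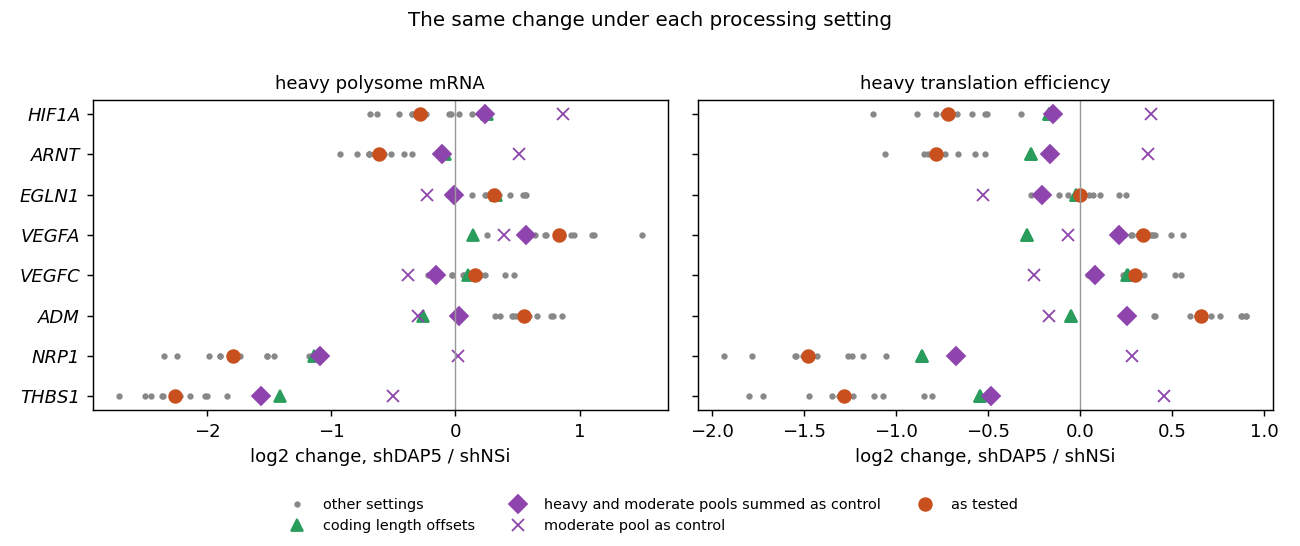
Log2 change of each member in shDAP5 over shNSi (horizontal axis) in heavy polysome mRNA and in heavy translation efficiency, as tested (red) and under each other setting (grey), with the coding length offsets and the 2 other control pools marked. For NRP1 and THBS1 the values with the moderate pool as control (0.02 and −0.51, then 0.28 and 0.45) lie apart from the rest.

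For light polysomes, translation efficiency passed for no member and for 0% of 15967 genes, with 833 at an unadjusted p under 0.05 by edgeR and 0 called by DESeq2 or limma. The largest differences were those of THBS1, 0.64 ± 0.26 (SE, adjusted p = 0.879), and NRP1, 0.61 ± 0.24 (adjusted p = 0.879). Their light-over-total ratios were −0.86 and −1.15 (THBS1) and −0.88 and −1.17 (NRP1) in shNSi. In shDAP5 they were −0.08 and −0.64 (THBS1) and −0.17 and −0.64 (NRP1). These values did not overlap between the lines, and the direction was the opposite of that in heavy polysomes. ADM was at −0.38 ± 0.28, ARNT at 0.31 ± 0.20, VEGFA at −0.30 ± 0.23, VEGFC at −0.18 ± 0.20, HIF1A at −0.08 ± 0.28 and EGLN1 at 0.05 ± 0.21. Without the first shNSi culture, in a fit with 1 shNSi culture, THBS1 was at 0.79 and NRP1 at 0.77. With the moderate pool as the control HIF1A was at −1.19 (adjusted p = 0.0351).

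Other genes of the same pathways were counted from 5 lists, which the members are not part of. In total mRNA 1 of 20 HIF targets and no gene of the other lists passed, beside 0.354% of 14992 genes tested. It was DDIT4, an mTOR inhibitor, which rose from 221 and 201 CPM to 505 and 399 (log2 change 1.13 ± 0.18, SE, adjusted p = 0.0172). This call ended with limma and with all 14 libraries in 1 fit, where 0 genes were called higher. In heavy polysome mRNA the VEGF family and its receptors had 2 genes higher and 4 lower of 9 tested (median −0.78), and the hypoxia-induced HIF targets 4 higher and 4 lower of 20 (median −0.32). The regulators of HIF had 1 higher and 2 lower of 9 (median 0.09), the FGF ligands and receptors 0 and 1 of 7 (median −0.47), and the other angiogenic and angiostatic factors 3 and 2 of 10 (median 0.84). These counts stand beside 14.2% higher and 16.7% lower over all genes tested, and nothing particular to a list is read from them. Changes ran in both directions in 4 of the 5 lists. No list gene passed in light polysomes or in light translation efficiency.

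The list genes that changed in heavy polysomes included close relatives of the members. Their calls were not recomputed one by one under the alternatives. Only 50 genes passed against the shNSi moderate pool and 421 against the summed pools, so these calls may end there. NRP2, the paralog of NRP1, fell from 7.60 and 25.3 CPM to 3.50 and 2.20 (−2.33 ± 0.41, adjusted p = 8.03e-06), and KDR, the main VEGF receptor, fell from 2.66 and 5.68 to 0.875 and 0.810 (−2.11 ± 0.49, adjusted p = 0.000387). The KDR values rest on 57 and 120 reads in shNSi and 25 and 21 in shDAP5. In total mRNA NRP2 (−1.01 ± 0.47, adjusted p = 0.442) and KDR (−1.17 ± 0.41, adjusted p = 0.23) were also lower without passing. Among the genes that rose, PGF, a VEGF-family ligand, went from 11.1 and 32.5 to 46.4 and 63.9 CPM (1.54 ± 0.35, adjusted p = 0.000415). RAMP1, a subunit of receptors for calcitonin-family peptides, went from 4.34 and 4.55 to 12.6 and 14.005 (1.77 ± 0.38, adjusted p = 0.000139), and DDIT4 from 188 and 151 to 556 and 558 (1.90 ± 0.37, adjusted p = 2.3e-05). In heavy translation efficiency KDR (adjusted p = 0.264), PGF (adjusted p = 0.0569) and DDIT4 (adjusted p = 0.122) did not pass.

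In heavy translation efficiency 7 genes of the lists passed, 4 lower and 3 higher, where 13.1% of all genes did (4.85% higher and 8.23% lower). They were 1 of 9 regulators of HIF, 2 of 9 genes of the VEGF family, 0 of 7 FGF genes, 1 of 10 other factors and 3 of 20 HIF targets. The list genes were not recomputed one by one under the alternatives, and all of these calls end under the 4 settings in which 0 genes passed. P4HA1, a collagen prolyl hydroxylase, fell by 1.39 ± 0.34 on the log2 scale (SE, adjusted p = 0.00859), NRP2 fell by 1.33 ± 0.40 (adjusted p = 0.0245) and EP300, a HIF coactivator, fell by 1.22 ± 0.39 (adjusted p = 0.0393). VEGFB, another VEGF-family ligand, rose by 1.09 ± 0.34 (adjusted p = 0.0302), ANKRD37 by 1.14 ± 0.39 (adjusted p = 0.045) and RAMP1 by 1.20 ± 0.37 (adjusted p = 0.0285). The medians were 0.25 for the regulators of HIF, −0.63 for the VEGF family, 0.02 for the FGF genes, 0.50 for the other factors and −0.33 for the HIF targets, beside 0.09 over all genes.

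In the control cells 15 of 20 HIF targets were enriched in heavy and 5 in light polysomes, with a median log2 ratio of 1.37, beside 32% of all genes toward heavy and 32.9% toward light. Over all genes this ratio ran with coding length (Spearman's rho 0.65). The list genes were not recomputed with coding length offsets or other settings, and nothing particular to HIF targets is read from these counts. PGK1 (3.23 ± 0.46, adjusted p = 1.59e-10) and ENO1 (2.77 ± 0.49, adjusted p = 2.15e-07), both glycolytic enzymes, were toward heavy. VEGFB (−2.21 ± 0.33, adjusted p = 1.64e-09), ANKRD37 (−2.00 ± 0.35, adjusted p = 2e-07) and PGF (−1.87 ± 0.32, adjusted p = 4.72e-08) were toward light. ADM and VEGFC, with ratios below 0 that did not pass, lay on the same side. The VEGF family had 5 genes toward heavy and 2 toward light of 9, the regulators of HIF 3 and 2 of 9, the FGF genes 1 and 2 of 7 and the other factors 2 and 4 of 10.

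**Figure D5:**
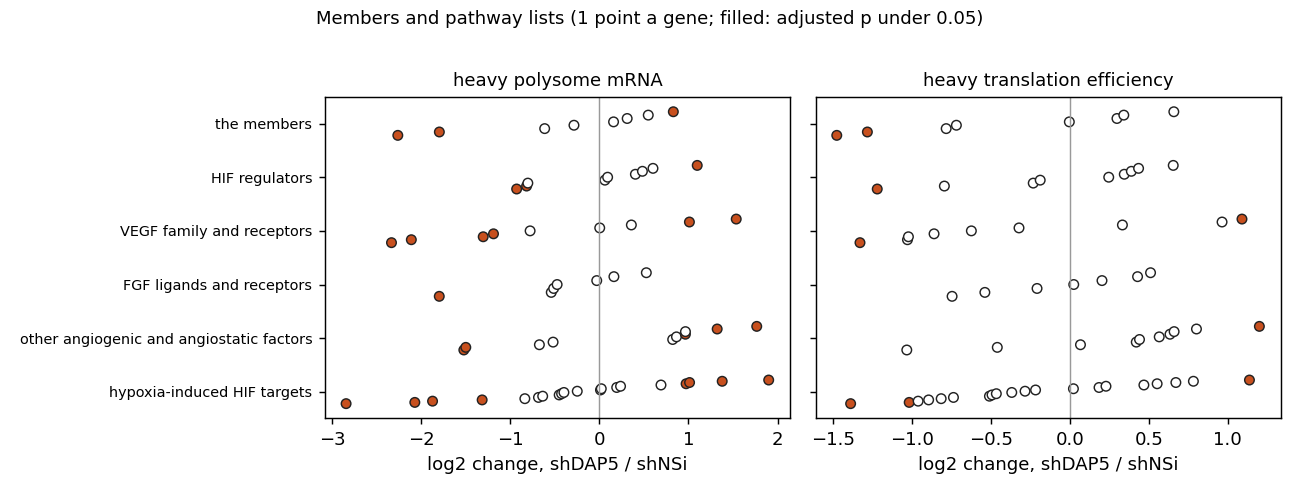
Log2 change in shDAP5 over shNSi (horizontal axis) of the members and of the genes in 5 pathway lists, 1 point a gene, in heavy polysome mRNA and in heavy translation efficiency, with filled points at an adjusted p under 0.05. Filled points stand on both sides of 0 in every row of the left panel but that of the FGF ligands and receptors, where 1 gene is lower.

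Levels over the 14 libraries were compared between genes as a description, since the libraries share cultures and fractions. Among 9388 genes, HIF1A was most like ETV5 (Pearson's r 0.986), PRRC1 (0.978) and IFIT5 (0.977), and VEGFA most like PMEPA1 (0.950), IER5L (0.921) and DDR1 (0.916). FGF2 had too few counts for this. Among the members ARNT ran with NRP1 (0.87) and with HIF1A (0.852), NRP1 with THBS1 (0.803) and VEGFC with ADM (0.762). VEGFA and HIF1A had an r of −0.011, the value nearest to 0 among the member pairs.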

How the data were processed

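The members and the 5 pathway lists were chosen with earlier results of these data known. The authors deposited whole-number read counts per gene symbol for 14 libraries, without normalization, from single-read sequencing of total, light, moderate and heavy polysome mRNA. The submitters' processing notes name STAR 2.6.0a, limma and the build hg19, and the name of the deposited file points to featureCounts, whose version, strand setting and annotation are not given in the sources used here. The study quantile normalized total and polysome mRNA independently and tested differences of log2 values with limma. Totals of 25899838 to 30795910 counts a library and 2 cultures a group limit the precision.

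Counts were filtered with filterByExpr, scaled by TMM and tested with the robust quasi-likelihood test of edgeR 4.0.16 in R 4.3.3, with 1 fit for the 4 libraries of a fraction. For translation efficiency, a fraction-by-shRNA interaction was tested in 8 libraries, each culture having its own term, and heavy over light polysomes in shNSi was fitted in 6 libraries with culture and pool as terms. P-values were two-sided and adjusted by Benjamini-Hochberg over all genes tested, with a threshold of 0.05. SE is that of the log2 change. CPM used TMM over all 14 libraries, log2 ratios a prior count of 2, and CPM per kilobase the exon union of GENCODE v29. Transcripts were chosen by CCDS, then APPRIS principal, then length. The scripts were tested on simulated counts.

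Named genes were the 9 members, EIF4G2, the 3 lowest and 3 highest passing changes of the lists in each comparison, and the 3 genes most like HIF1A and VEGFA among those with a mean of at least 10 CPM. One list gene that this rule takes is not reported here. Alternatives were DESeq2 1.42.0, library size without TMM, limma 3.58.1 on quantile-normalized log2(CPM + 1), 2 other filters, coding length offsets, all 14 libraries in 1 fit, other covariates, other control pools, a replicate block and each culture left out. A fit with a culture left out has 1 culture in that line, so its p-values do not measure the spread there. For heavy over light polysomes in shNSi such a fit took the remaining polysome libraries of both lines, without a culture term. Chosen after seeing the data were a crossed block, the block with coding length offsets, and the heavy-over-light comparison between the lines.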

Additional observations from a re-analysis of the deposited data

Results flagged for a closer look

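Heavy-over-light polysome ratios differed between shDAP5 and shNSi for NRP1 and THBS1. This comparison was chosen after seeing the data and tests the interaction of pool and shRNA in the 8 heavy and light libraries with edgeR, where 6.75% of 15878 genes passed (1.54% higher and 5.21% lower). For NRP1 the mean log2 ratio was 2.22 ± 0.80 (SD, n = 2) in shNSi and −0.02 ± 0.14 in shDAP5, a fitted difference of −2.14 ± 0.46 (SE, adjusted p = 0.0175). For THBS1 it was 1.93 ± 0.88 in shNSi and −0.15 ± 0.27 in shDAP5, a fitted difference of −1.98 ± 0.47 (adjusted p = 0.0228). Both shNSi cultures lay above both shDAP5 cultures for each gene. The other members did not pass, with ARNT at −1.15 ± 0.39 (adjusted p = 0.071), ADM at 0.99 ± 0.49 (adjusted p = 0.216), VEGFA at 0.58 ± 0.41 (adjusted p = 0.405), HIF1A at −0.69 ± 0.50 (adjusted p = 0.417), VEGFC at 0.42 ± 0.39 (adjusted p = 0.545) and EGLN1 at −0.11 ± 0.41 (adjusted p = 0.905). The comparison uses the heavy libraries of the report again. Its dependence on coding length and on the control pool was not tested.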

How the results depend on the processing

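Over the 8 measured members, 532 values under the alternatives kept direction and side of the threshold. With the direction kept, 25 came to pass and 29 no longer passed. The sign changed in 54, some of which also crossed the threshold and are not among the 25 and 29. FGF2, below 3 counts in every library, gave no value. The cause of these changes was not tested. The genes past the threshold in heavy over light polysomes in shNSi ranged from 6580 to 10264 and stayed within 1.5 times of 9843.

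In total mRNA, 53 genes passed, against 273 with DESeq2, 18 without TMM, 8 with limma, 577 without a filter, 11 with coding length offsets, 3 with all 14 libraries in 1 fit, and 0 (without the first shDAP5 culture, 712 unadjusted) to 386 (without the first shNSi culture) with a culture left out. In heavy polysome mRNA, 4414 passed, against 1458 with coding length offsets, 50 with the moderate pool as control, 421 with the heavy and moderate pools summed, and 2 (without the second shDAP5 culture) to 3559 with a culture left out. In light polysome mRNA, 0 passed, against 105 with DESeq2, 244 without a filter, 2 with coding length offsets, 1 with all 14 libraries, 3940 with the moderate pool, and 2 to 4678 (without the first shNSi culture) with a culture left out. In heavy translation efficiency, 2012 passed, against 0 without TMM (4599 at an unadjusted p under 0.05), 916 with limma, 496 with coding length offsets, 0 without a term for each culture (3472 unadjusted), 0 with the moderate pool (455 unadjusted), 0 with the summed pools (386 unadjusted), and 4 (without the second shNSi culture) to 4515 (without the first shDAP5 culture) with a culture left out. In light translation efficiency, 0 passed, against 3 without a filter, 4367 with the moderate pool, and 0 (323 and 327 unadjusted, without either shDAP5 culture) to 2030 (without the first shNSi culture) with a culture left out.

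The labels do not say whether cultures of the same replicate number were paired. Correlations of the deviations of same-numbered cultures were −0.18 in total, 0.05 in heavy and 0.03 in light mRNA, −0.40 for heavy over total and 0.07 for light over total, over 9389 genes. Each sets a single difference between cultures in one line against that in the other, so they cannot decide it. With the number as a block, 365 genes passed in total mRNA, 130 in light polysomes, 688 in heavy and 1 in light translation efficiency, and with coding length offsets as well 600 in heavy and 5 in light. THBS1 in heavy translation efficiency was at −1.28 (adjusted p = 0.0646) with the block alone and at −0.54 (adjusted p = 0.251) with the block and the offsets. With the numbers crossed, 4133 genes passed in heavy translation efficiency and 71 in total mRNA. In heavy translation efficiency HIF1A and ARNT each passed under 2 of 16 other settings and ADM under 1, the crossed block among them.

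In heavy polysome mRNA, HIF1A changed sign with limma (0.029), coding length offsets (0.26), the moderate pool (0.87) and the summed pools (0.24). With the moderate pool ARNT was at 0.51, VEGFC at −0.38, NRP1 at 0.020, ADM at −0.30 and EGLN1 at −0.23, and with the summed pools VEGFC at −0.16 and EGLN1 at −0.0098. VEGFC was at −0.031 with all 14 libraries and ADM at −0.26 with coding length offsets. In light polysome mRNA the moderate pool put HIF1A at −0.78 and EGLN1 at −0.15. In heavy translation efficiency the moderate pool put HIF1A at 0.38, ARNT at 0.37, VEGFA at −0.067, VEGFC at −0.25, NRP1 at 0.28, THBS1 at 0.45 and ADM at −0.17. Coding length offsets put VEGFA at −0.29 and ADM at −0.051, with and without the replicate block. EGLN1, at −0.0044, was at 0.21 without TMM, 0.11 with limma, 0.045 with at least 10 counts in every library and 0.010 without a term for each culture. In light translation efficiency the moderate pool put EGLN1 at −0.38. In heavy over light polysomes in shNSi, EGLN1 was at 0.0038 with DESeq2, 0.051 without a filter and 0.12 with all 14 libraries, and coding length offsets put VEGFA at 0.70 and ADM at 0.45.

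With a culture left out, some values took both signs. In total mRNA VEGFA ran from −0.14 to 1.27, VEGFC from −0.44 to 0.16 and ADM from −0.59 to 0.22. In heavy polysome mRNA HIF1A ran from −0.69 to 0.13, VEGFC from −0.22 to 0.47 and EGLN1 from −0.062 to 0.56. In light polysome mRNA VEGFA ran from −0.61 to 1.14 and THBS1 from −0.75 to 0.021. In heavy translation efficiency EGLN1 ran from −0.27 to 0.25, and in light translation efficiency from −0.087 to 0.16, with HIF1A from −0.31 to 0.13. In heavy over light polysomes in shNSi VEGFA ran from −0.52 to 0.17 and EGLN1 from −0.23 to 0.31.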
